A study of Homo sapiens with 8 samples.

Results

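Induction of the shG9a hairpin was compared with induction of the shLSD1 hairpin in Kyse510, an established human esophageal squamous cell carcinoma (ESCC) cell line, over the 13174 genes that reached 1 FPKM (fragments scaled by gene length and library total) in at least 1 of the 2 induced libraries, out of 28942 genes in the knockdown table and 34164 in the whole series. Each line carried a Tet-inducible shRNA, against LSD1 in one and G9a in the other, was selected for 14 days in puromycin, and was sequenced once without doxycycline (Dox) and once after 2 days of Dox. Both libraries of the comparison therefore had Dox, and a change that Dox made equally in both lines cancels in their ratio, whereas a difference that the lines already had does not. The 2 uninduced libraries were used to flag such differences. Each condition was 1 library of 1 stable line with 1 hairpin, nothing in the labels says how many clones a line held, and no library of a nonsilencing hairpin was analysed here.

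LSD1 (gene KDM1A) is an amine oxidase that removes methyl groups from lysine 4 of histone H3 as part of the CoREST repressor complex. G9a (gene EHMT2) places methyl groups on lysine 9 of histone H3, a mark bound by HP1 proteins. Under load on the endoplasmic reticulum (ER), the unfolded protein response (UPR) acts through the transcription factors XBP1, ATF6 and ATF4 to raise ER chaperones and enzymes of amino acid supply.

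The hairpins are shown because they define the lines. The target and guide sequences come from the oligonucleotide list of the study, as the shLSD1 and shG9a constructs whose sequences the inducible lines reused. No sample label names a hairpin sequence, so the assignment to these lines rests on the study's methods. The seed of each guide (bases 2 to 8) is in capitals.
shLSD1 target: gcctagacattaaactgaata
shLSD1 guide: tATTCAGTttaatgtctaggc
shG9a target: gctccaggaatttaacaagat
shG9a guide: aTCTTGTTaaattcctggagc
The shLSD1 target lies in the coding sequence of KDM1A, in exon 16 of 21, at chr1:23077307-23077327 on the plus strand of GRCh38. The shG9a target lies in the coding sequence of EHMT2, in exon 24 of 28, at chr6:31882978-31882998 on the minus strand. Among annotated transcripts, each target was found in those of its own gene alone.

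The 4 libraries held 16540175 to 17754601 reads, as recovered from the FPKM values. All 14 squamous epithelial markers, among them KRT5, TP63, SOX2 and CDH1, reached 1 FPKM in at least 1 library, and their summed level was 1311 to 2831 FPKM. The sums were 3.32 to 5.04 FPKM for fibroblast markers, 3.92 to 14.6 FPKM for endothelial, 2.42 to 6.77 FPKM for neuronal and 0.234 to 1.25 FPKM for hepatic markers. The immune sum ran from 9.36 FPKM in induced shG9a to 50 FPKM in induced shLSD1 and came mainly from HLA-DRA. PTPRC, the pan-leukocyte antigen, was at most 0.0249 FPKM in any library.

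The targeted genes were each lower in their own induced line. KDM1A (chromosome 1, 23019443 to 23083689) was at 26 FPKM without and 6.29 FPKM with Dox in the shLSD1 line, and at 26.4 and 35.8 FPKM in the shG9a line. Induced shG9a thus held 5.69-fold more KDM1A (95% interval 5.22 to 6.22). EHMT2 (chromosome 6, 31879759 to 31897687) was at 8 and 7.97 FPKM in the shLSD1 line and at 7.85 and 4.76 FPKM in the shG9a line, 1.67-fold lower in induced shG9a (1.51 to 1.85). The separation was therefore smaller for the G9a transcript than for the LSD1 transcript, and the uninduced lines were close for both, with log2 ratios of 0.02 and -0.02.

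Throughout, a log2 ratio is log2 of FPKM + 1 in the shG9a line over FPKM + 1 in the shLSD1 line. A fold is the ratio of the FPKM values themselves, with a 95% Clopper-Pearson interval from the reads behind them. Where 4 levels follow each other, they are those of the shLSD1 line without and with Dox and then of the shG9a line without and with Dox, and 1 level against another is induced shLSD1 against induced shG9a. A gene was called higher or lower in induced shG9a when FPKM + 1 differed at least 1.3-fold and a two-sided exact binomial test on the reads gave an unadjusted p under 0.05. With 1 library per condition these intervals and calls cover counting error only and compare 2 libraries, not 2 conditions. In such bulk RNA, fewer cells making a transcript and less transcript per cell cannot be told apart.

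Of the 13174 genes, 2066 (15.7%) were called higher and 2187 (16.6%) lower in induced shG9a, 32.3% together. The balance was not even among large differences. At 2-fold, 191 genes (1.45%) were higher and 563 (4.27%) lower, and at 4-fold 18 were higher and 75 lower. Before induction, 374 of the same genes (2.84%) were called between the lines, 145 (1.10%) higher and 229 (1.74%) lower in shG9a, and 31 of them at 2-fold. Among the 6315 genes with at least 5 FPKM in both induced libraries, the SD of the log2 ratio was 0.47 with Dox and 0.13 without. The median log2 ratio of all 13174 genes was 0.048 with Dox and 0.003 without.

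**Figure D1:**
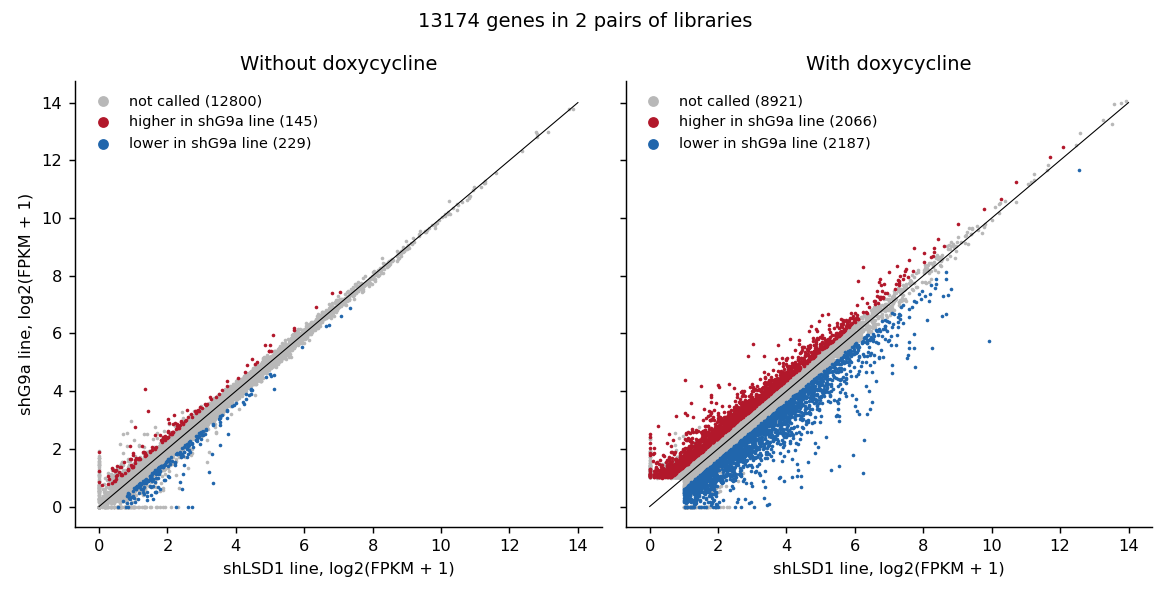
Each point is 1 of 13174 genes, with its level in the shLSD1 line on the horizontal axis and in the shG9a line on the vertical axis, both as log2(FPKM + 1), without Dox on the left and with Dox on the right. Red genes were called higher and blue genes lower in the shG9a line, 145 and 229 before induction against 2066 and 2187 after it, and the wide blue lobe on the right holds the 563 genes that were lower at 2-fold.

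Before induction, 1.10% of all 13174 genes were called higher and 1.74% lower in shG9a, which limits how many calls could recur. Of the 2066 higher genes, 17 were already called higher in uninduced shG9a, 44 were called lower and 2005 were not called. Of the 2187 lower genes, 54 were already called lower, 48 were called higher and 2085 were not called. Of the 71 genes called in the same direction in both pairs, 58 had the larger log2 ratio with Dox.

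The set was mostly protein-coding, with 10793 such genes, of which 1723 were higher and 1869 lower. Long noncoding genes were called in both directions at similar rates, with 95 of 528 lincRNAs higher and 100 lower, and 76 of 502 antisense genes higher and 86 lower. Processed pseudogenes did not, with 85 of 450 higher and 35 lower, and their reads may be shared with their parent genes. Of all members, 11542 reached 1 FPKM in both induced libraries, 809 in induced shG9a only and 823 in induced shLSD1 only. The genes nearest the filter were IL11RA, kept at 0.2942 FPKM in induced shLSD1 and 1.0005 in induced shG9a, and NNMT, left out at 0.9979 and 0.9297 FPKM. In all, 362 genes peaked between 1 and 1.1 FPKM and 369 between 0.9 and 1 FPKM.

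The protein-coding genes with the lowest log2 ratios among those ranked included SPP1, LCN2 and SAA1. SPP1, which encodes the secreted phosphoprotein osteopontin (chromosome 4, 87975650 to 87983426), was at 12.7 FPKM without and 74.8 FPKM with Dox in the shLSD1 line, and at 15.9 and 1.24 FPKM in the shG9a line. The induced libraries lay on opposite sides of the uninduced ones, and SPP1 was 60.1-fold lower in induced shG9a (45.5 to 81.2), a log2 ratio of -5.08. LCN2 (chromosome 9, 128149071 to 128153455), the siderophore-binding lipocalin, was at 1166 and 964 FPKM in the shLSD1 line and at 1127 and 52.6 FPKM in the shG9a line. Here the induced shG9a library alone was low, and the difference was 18.3-fold (17.4 to 19.4). SAA1, the acute-phase serum amyloid A, was at 6.16 and 45.8 FPKM in the shLSD1 line and at 6.61 and 1.67 FPKM in the shG9a line, 27.4-fold lower (18.1 to 43.6). SAA1 and SAA2 are near-identical, so reads may have been split between them.

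RARRES1 and CYP24A1 were also among the 10 ranked genes that were lower. RARRES1, named for its response to retinoids, was at 3.9 and 75.3 FPKM in the shLSD1 line and at 6.19 and 3.95 FPKM in the shG9a line, 19.1-fold lower in induced shG9a (16.2 to 22.6). Only the induced shLSD1 library stood apart. RARRES1 overlaps MFSD1 on the other strand, and the strand setting of the counting is not given. CYP24A1, the enzyme that inactivates vitamin D, was at 11.1 and 10.2 FPKM in the shLSD1 line and at 9.7 and 0.0581 FPKM in the shG9a line. That is 711 reads against 4, a 176-fold difference (68.4 to 647), with induced shG9a the only low library.

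CHAC1, which degrades glutathione, was at 8.84 and 20.5 FPKM in the shLSD1 line and at 10.8 and 0.617 FPKM in the shG9a line, 33.2-fold lower (21.8 to 53.3). IL1A, the alarmin interleukin 1 alpha, was at 41.8 and 9.79 FPKM in the shLSD1 line and at 39.8 and 0.0272 FPKM in the shG9a line. The last value is 1 read, against 364 in induced shLSD1, a ratio of 360 with a counting interval of 64.2 to 14260. Both induced libraries were below their uninduced ones for IL1A, the shG9a library far more so.

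The other 3 genes of the 10 were TCIM, ABCC3 and PDZK1IP1. ABCC3, an export pump for organic anions, was at 13.6 and 16.9 FPKM in the shLSD1 line and at 14.3 and 1.02 FPKM in the shG9a line, 16.6-fold lower (14.2 to 19.4). TCIM was 19.3-fold lower (13.7 to 28.1), with 20.5 FPKM in induced shLSD1 against 1.06 in induced shG9a. PDZK1IP1 was 9.69-fold lower (8.4 to 11.2), with 80.2 against 8.27 FPKM and both uninduced lines between them at 19.7 and 19.5 FPKM.

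The protein-coding genes ranked highest included GLYATL2, MUC13 and TXNIP. GLYATL2, an acyltransferase that joins fatty acids to glycine (chromosome 11, 58834065 to 58904215), was at 0.276 and 1.03 FPKM in the shLSD1 line and at 0.263 and 20.1 FPKM in the shG9a line, 19.6-fold higher in induced shG9a (13.8 to 28.8). MUC13, a membrane mucin, was at 0.0966 and 0.18 FPKM in the shLSD1 line and at 0.0864 and 5.91 FPKM in the shG9a line, 32.9-fold higher (18.2 to 66.5) on 11 reads against 358. TXNIP, the thioredoxin-binding arrestin that limits glucose uptake, was at 1.15 and 7.18 FPKM in the shLSD1 line and at 1.12 and 48.9 FPKM in the shG9a line, 6.81-fold higher (6.17 to 7.53). Induced shG9a was the highest of the 4 libraries for these 3 genes, and induced shLSD1 was also above both uninduced lines. For MUC13 the latter rested on 11 reads against 6 and 5.

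KRT13 and KRT5 had another order of levels. KRT13, the keratin of suprabasal esophageal cells, was at 8.16 and 1.82 FPKM in the shLSD1 line and at 7.08 and 17.3 FPKM in the shG9a line, 9.47-fold higher (7.64 to 11.9). KRT5, the basal squamous keratin, was at 188 and 74.6 FPKM in the shLSD1 line and at 177 and 312 FPKM in the shG9a line, 4.18-fold higher (4.06 to 4.3). For both keratins, induced shLSD1 was the lowest and induced shG9a the highest of the 4 libraries. Other keratins were lower, among them KRT17, at 1737 and 265 FPKM in the shLSD1 line and at 1596 and 158 FPKM in the shG9a line, 1.68-fold lower (1.63 to 1.72).

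IGFBP5, which binds insulin-like growth factors, had the same order, with 3 FPKM in induced shLSD1 and 17.5 FPKM in induced shG9a (5.82-fold, 5.19 to 6.56). KCTD12 (2.48 against 13.6 FPKM) and RGS2 (2.45 against 13 FPKM), a brake on G protein signaling, were 5.51-fold (4.83 to 6.29) and 5.31-fold (4.23 to 6.73) higher. SAMD11 was at 3.11 against 16.5 FPKM, 5.3-fold higher (4.6 to 6.14), and overlaps NOC2L on the other strand, which was itself called higher at a log2 ratio of 0.46.

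**Figure D2:**
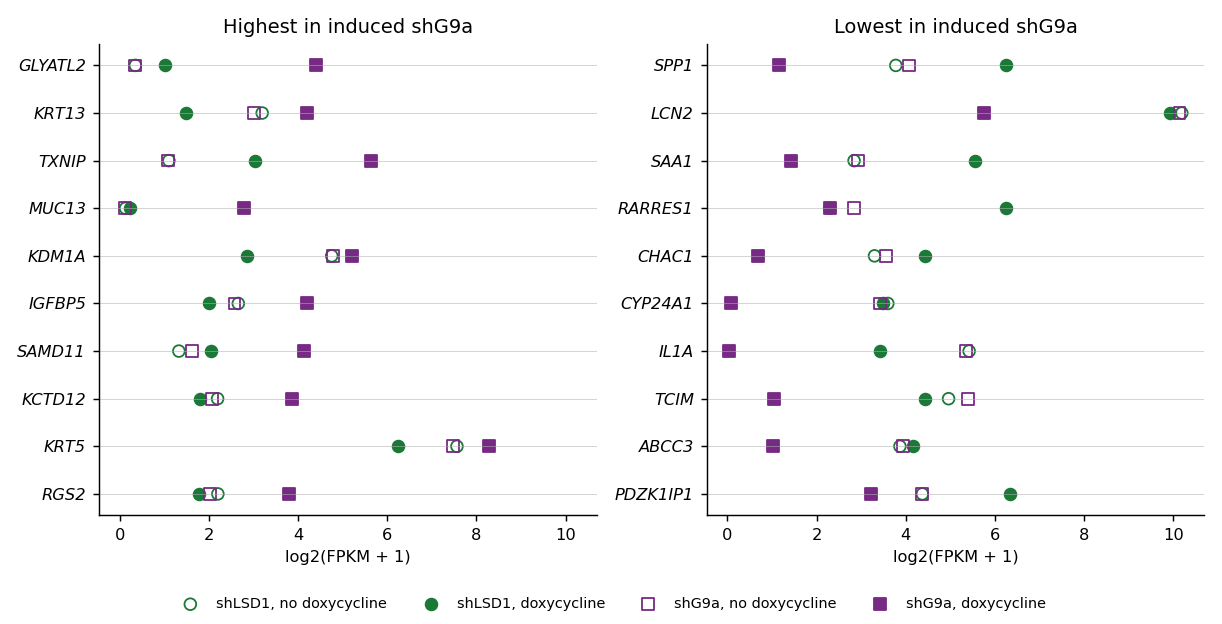
Levels of the 10 ranked protein-coding genes in each direction, as log2(FPKM + 1) on the horizontal axis, in each of the 4 libraries (circles for shLSD1, squares for shG9a, open without Dox and filled with Dox). They had the largest log2 ratios among genes called at 2-fold with at least 5 FPKM in the higher library. Genes called the same way before induction, such as WISP2, are left out. The open symbols nearly coincide for most genes, and the filled square is the furthest right on the left panel and the furthest left on the right panel, apart from RARRES1, where uninduced shLSD1 is as low (3.9 against 3.95 FPKM).

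Genes that already differed before induction are set apart. Among higher genes, CAPNS2 was at 3.49 and 6.25 FPKM in the uninduced shLSD1 and shG9a lines and at 3.99 and 18.1 FPKM with Dox, 4.54-fold higher (3.5 to 5.96). It lies within LPCAT2 on the same strand, and LPCAT2 itself had a log2 ratio of -0.66. CIAO2B, an iron-sulfur assembly factor, was as far apart before (33.3 and 61.2 FPKM) as with Dox (19.2 and 33 FPKM), with log2 ratios of 0.86 and 0.75. HIST1H2BC (1.13), HMGCS1 (0.80) and DSCC1 (0.68) had larger log2 ratios with Dox than without (0.45, 0.40 and 0.38).

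Among lower genes with an earlier difference, 2 were of MHC class II. HLA-DRA was at 20.9 and 13.9 FPKM in the uninduced shLSD1 and shG9a lines and at 45.2 and 7.89 FPKM with Dox, 5.73-fold lower (4.88 to 6.77). HLA-DQB1 was at 28.6 and 21.6 FPKM before and 40.8 and 11.8 FPKM with Dox, 3.47-fold lower (3.23 to 3.72), and overlaps its antisense gene HLA-DQB1-AS1. WISP2 was at 30.9 and 23.3 FPKM before and 18.9 and 1.1 FPKM with Dox (17.2-fold, 14 to 21.4). NCCRP1 and LOXL4, a collagen-crosslinking oxidase, were 4.1-fold (3.41 to 4.96) and 4.5-fold (3.48 to 5.88) lower.

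Other genes crossed over, being called one way before induction and the other way after it. MT2A, a zinc-binding metallothionein, was at 135 and 96.3 FPKM in the uninduced shLSD1 and shG9a lines and at 114 and 207 FPKM with Dox, 1.82-fold higher (1.73 to 1.91). KCNH4, RCSD1, HOXC9 and APOBEC3C did likewise, with log2 ratios of 1.24, 0.78, 0.60 and 0.53 with Dox and -0.42, -0.46, -0.48 and -0.40 without. HOXC9 overlaps HOXC6, which cannot be separated here. In the other direction, RARRES1, TCIM, CXCL1, PI3 and S100A9 were higher in shG9a before induction, at log2 ratios of 0.41 to 0.58, and lower after it, at -3.95 to -2.75.

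The noncoding genes with the largest log2 ratios were ranked separately, 3 in each direction. CYP2B7P, a cytochrome P450 pseudogene, was at 23.4 and 60.2 FPKM in the shLSD1 line and at 19.4 and 2.47 FPKM in the shG9a line, 24.4-fold lower (20.9 to 28.5). AC245100.3 was 27.3-fold lower (13 to 68.7) on 193 against 7 reads. RNU7-75P had 8 against 0 reads, at least 2.64-fold lower against a floor of 3 reads, and overlaps NUP155. LINC02593 (1.32 against 11.1 FPKM) and AC079466.1 (0.693 against 7.79 FPKM) were 8.42-fold (6.81 to 10.5) and 11.3-fold (8.51 to 15.2) higher. MIR3193 rested on 1 against 8 reads, a ratio of 8.09 with an interval of 1.08 to 359.

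Gene groups were described with 34 lists, given as counts of called members and a median log2 ratio beside 0.048 over all 13174 genes, of which 15.7% were called higher and 16.6% lower. Cytokine, ATF4, UPR, immediate early and squamous differentiation lists lay below that median. Heat shock, replication, sterol and ID gene lists lay above it.

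**Figure D3:**
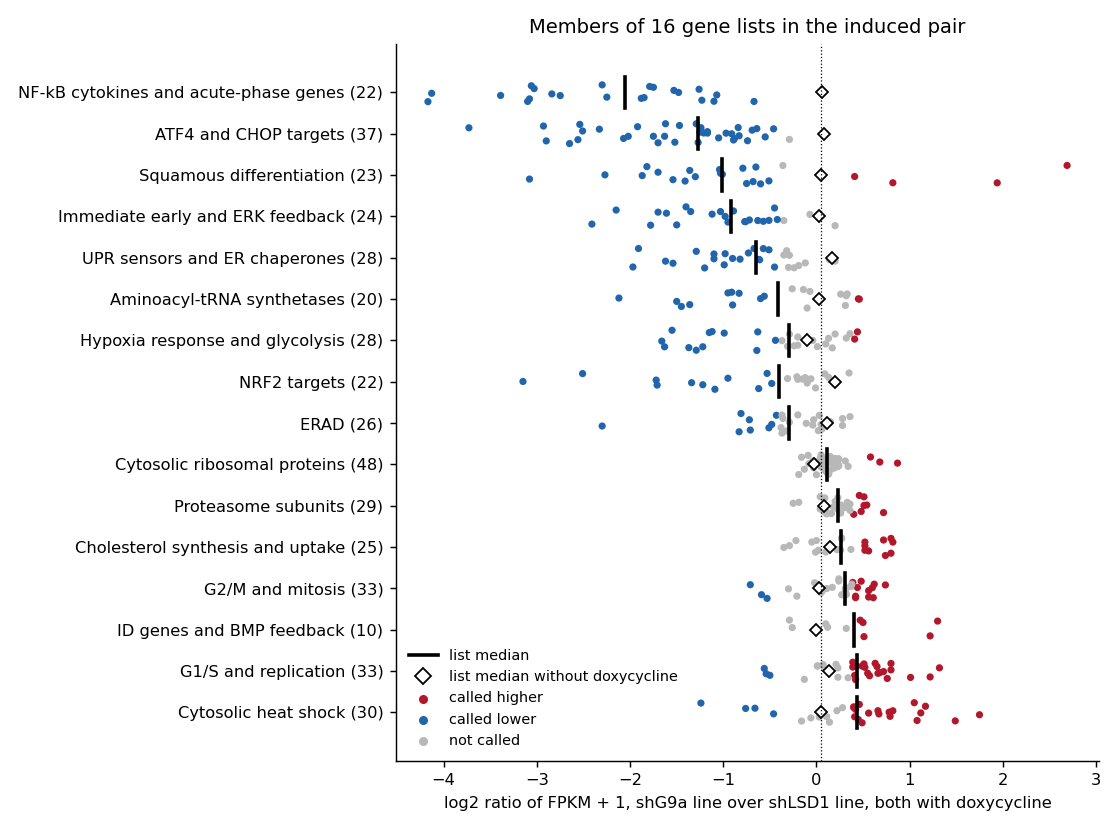
Each point is a gene of 1 of 16 lists (number of genes above the filter in brackets), placed by its log2 ratio of FPKM + 1 in induced shG9a over induced shLSD1. Black bars are list medians, open diamonds list medians in the uninduced pair, and the dotted line the median of all genes (0.048). The NF-kB list has its bar at -2.06 and its diamond at 0.06, and the heat shock list at 0.43 and 0.05.

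NF-kB target cytokines and acute-phase genes had the lowest median. NF-kB is the transcription factor that inflammatory signals release from its inhibitor IkB. Of 29 listed genes, 22 passed the filter, and all 22 were called lower in induced shG9a, 21 of them at 2-fold, with a median of -2.06 against 0.06 before induction. The chemoattractant CXCL8 was at 49.4 and 14.2 FPKM in the shLSD1 line and at 52.5 and 0.863 FPKM in the shG9a line, 16.5-fold lower (11.7 to 24.1). CCL20, which draws in CCR6-bearing lymphocytes, was at 30.9, 24, 33 and 1.92 FPKM in the same order, 12.5-fold lower (9.45 to 16.9). For both chemokines induced shG9a was the lowest library.

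The same list held other patterns in a calprotectin and a complement gene. S100A9, a calprotectin subunit, was at 30.4 and 302 FPKM in the shLSD1 line and at 40.7 and 44.1 FPKM in the shG9a line, 6.83-fold lower (6.18 to 7.57), so that induced shLSD1 was the one library apart. Complement C3 was at 98.3, 210, 97.6 and 61.8 FPKM, 3.4-fold lower (3.32 to 3.48), with induced shLSD1 the highest and induced shG9a the lowest library. NFKBIA, which encodes the inhibitor IkB alpha, had the smallest ratio of the list at 112 against 70.1 FPKM (1.6-fold, 1.53 to 1.67). Over the 22 genes, induced shG9a was the lowest of the 4 libraries for 17 and induced shLSD1 the highest for 12, whereas over all members these shares were 25.3% and 28.7%. The listed genes IL6, TNF, CXCL5, IL24 and CFB were below the filter, and reads of CXCL1, CXCL2 and CXCL3 may be shared.

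Targets of ATF4 and CHOP, which restore amino acid supply or promote death under ER or nutrient stress, were nearly all lower. Of 39 listed genes, 37 passed, 36 were called lower (25 at 2-fold) and none higher, with a median of -1.27 against 0.08 before induction. ATF4 itself was at 304 and 293 FPKM in the shLSD1 line and at 292 and 164 FPKM in the shG9a line, 1.79-fold lower (1.74 to 1.85). DDIT3, which encodes CHOP, was at 49.9, 27.8, 59.5 and 3.58 FPKM, 7.77-fold lower (6.16 to 9.91). Only ATF5, at 8.29 against 6.61 FPKM, was not called.

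Among ATF4 targets in amino acid metabolism, the serine synthesis enzyme PSAT1 was at 108 and 215 FPKM in the shLSD1 line and at 121 and 27.4 FPKM in the shG9a line, 7.84-fold lower (7.35 to 8.37). SLC7A11, the cystine importer, was at 8.46, 17, 12.8 and 2.17 FPKM, 7.86-fold lower (7.04 to 8.79), and had been called higher in uninduced shG9a. The kinase-like inhibitor TRIB3 was at 70.4, 63.5, 80.2 and 10.1 FPKM, 6.27-fold lower (5.76 to 6.85). Over the 37 genes, induced shG9a was the lowest library for 34 and induced shLSD1 the highest for 22. Median levels of the list were 32.2 and 27.8 FPKM in the shLSD1 line and 33.2 and 9.03 FPKM in the shG9a line.

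Aminoacyl-tRNA synthetases, several of which ATF4 controls, split in 2. Of 20 genes, 10 were lower and 2 higher, with a median of -0.41. WARS was at 69.1 and 78.7 FPKM in the shLSD1 line and at 80.2 and 17.3 FPKM in the shG9a line, 4.54-fold lower (4.32 to 4.78). QARS was the highest at 46.3 against 64.2 FPKM (1.39-fold higher, 1.33 to 1.45).

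UPR sensors and ER chaperones were lower in 19 of 28 genes and higher in none, with a median of -0.65 against 0.17 before induction. HSPA5, the ER chaperone BiP, was at 1195 and 404 FPKM in the shLSD1 line and at 1551 and 102 FPKM in the shG9a line, 3.95-fold lower in induced shG9a (3.85 to 4.06). Both induced libraries were below their uninduced ones. XBP1, whose spliced mRNA encodes a chaperone-inducing factor, was at 61.4, 86.2, 68.6 and 29 FPKM, 2.98-fold lower (2.81 to 3.16). Of the sensors, ERN1, the RNase that splices XBP1, was at 3.14 against 1.09 FPKM (2.87-fold lower, 2.44 to 3.38) and ATF6 at 14.5 against 9.88 FPKM (1.47-fold lower, 1.37 to 1.57). EIF2AK3, the kinase PERK, was at 2.9 against 2.31 FPKM and was not called. The lectin chaperone CALR was at 180 against 206 FPKM and was not called either, with uninduced levels of 581 and 634 FPKM.

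Genes of ER-associated degradation, which sends misfolded proteins to the proteasome, were called lower in 8 of 26 and higher in none, with a median of -0.30, and lower in 12 after centring, that is with the median log2 ratio of the 6315 genes at 5 FPKM or more (0.058) subtracted. HERPUD1, a scaffold of the ER ubiquitin ligase, was at 55.8 and 43.2 FPKM in the shLSD1 line and at 69.1 and 7.99 FPKM in the shG9a line, 5.41-fold lower (5 to 5.87). The ligase SYVN1 was at 20 against 10.8 FPKM (1.85-fold, 1.71 to 1.99). Proteasome subunits themselves were not lower, with 7 of 29 higher, PSMB3 at 80.1 against 133 FPKM among them.

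**Figure D4:**
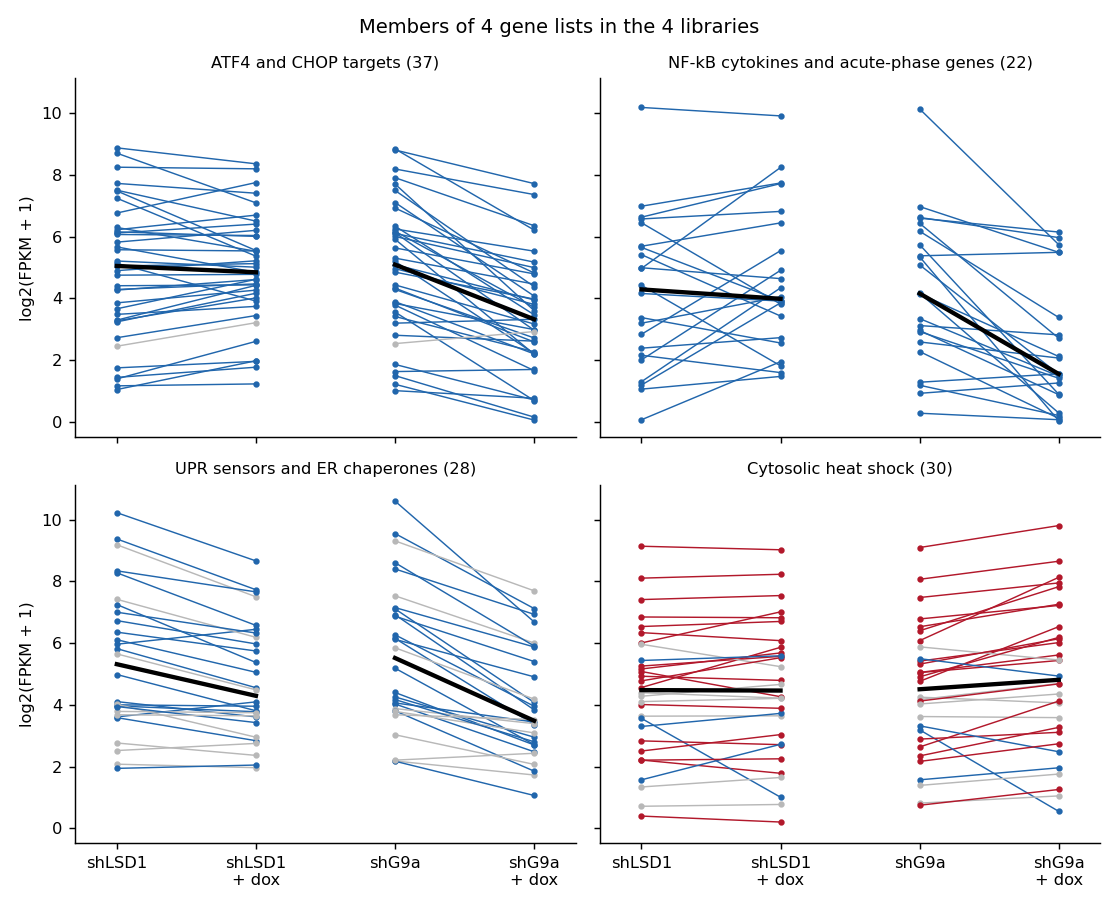
Levels of every gene above the filter in 4 lists, as log2(FPKM + 1), with each cell line drawn from its uninduced to its induced library. Blue genes were called lower and red genes higher in induced shG9a than in induced shLSD1, grey genes were not called, and black lines join the medians. The ATF4 median drops from 33.2 to 9.03 FPKM in the shG9a line against 32.2 to 27.8 FPKM for shLSD1, and the heat shock median goes from 22 to 27.2 FPKM against 21.3 to 21.3 FPKM.

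Cytosolic heat shock genes, whose products refold proteins under control of HSF1, were called higher in 19 of 30 genes and lower in 4, with a median of 0.43 against 0.05 before induction. HSP90AA1, the inducible HSP90, was at 79.9 and 66.6 FPKM in the shLSD1 line and at 83.4 and 226 FPKM in the shG9a line, 3.4-fold higher (3.3 to 3.5). HSPA8, the constitutive HSC70, was at 63.2, 128, 66.6 and 279 FPKM, 2.19-fold higher (2.14 to 2.24). HSPA1A was at 32.8, 18.2, 32 and 42.3 FPKM, 2.32-fold higher (2.13 to 2.52), and is near-identical to HSPA1B, while HSPA8 has many pseudogene copies.

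The 4 lower members were DNAJB6, HSPB8, SERPINH1 and HSPA6. SERPINH1 is a collagen chaperone of the ER rather than of the cytosol. Likewise HSPD1, a higher member that lost its call after centring, is a mitochondrial chaperonin. DNAJB6 was at 12.2 against 4.58 FPKM (2.66-fold lower, 2.48 to 2.84). Over the 30 genes, induced shG9a was the highest library for 23, against 45.8% of all members. After centring, 15 members were higher and 4 lower.

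Promoters are shown for 5 of these genes as examples of the elements described below. Sequences are from RefSeq (GRCh38.p14), 250 bases before to 50 bases after the start site, read along the strand of the gene, and matches were sought on both strands in 27305 genes with such an entry. Capitals mark the matching letters.
HSPA5 promoter: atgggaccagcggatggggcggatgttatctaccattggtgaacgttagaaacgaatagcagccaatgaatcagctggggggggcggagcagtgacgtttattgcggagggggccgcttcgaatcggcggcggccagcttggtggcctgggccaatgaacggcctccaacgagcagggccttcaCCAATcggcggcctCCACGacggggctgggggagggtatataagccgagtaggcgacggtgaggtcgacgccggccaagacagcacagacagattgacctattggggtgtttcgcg
HERPUD1 promoter: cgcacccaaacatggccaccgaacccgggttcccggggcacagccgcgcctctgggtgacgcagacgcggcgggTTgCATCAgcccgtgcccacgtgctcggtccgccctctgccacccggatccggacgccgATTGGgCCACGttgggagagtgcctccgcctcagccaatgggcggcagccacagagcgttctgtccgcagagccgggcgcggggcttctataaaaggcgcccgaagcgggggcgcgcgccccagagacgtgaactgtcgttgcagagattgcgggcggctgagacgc
CHAC1 promoter: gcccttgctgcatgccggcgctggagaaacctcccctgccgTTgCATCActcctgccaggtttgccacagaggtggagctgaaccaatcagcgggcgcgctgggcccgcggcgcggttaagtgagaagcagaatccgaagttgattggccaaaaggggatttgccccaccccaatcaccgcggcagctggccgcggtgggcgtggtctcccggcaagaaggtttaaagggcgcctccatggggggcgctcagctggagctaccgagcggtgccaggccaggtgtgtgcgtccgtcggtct
HSPA8 promoter: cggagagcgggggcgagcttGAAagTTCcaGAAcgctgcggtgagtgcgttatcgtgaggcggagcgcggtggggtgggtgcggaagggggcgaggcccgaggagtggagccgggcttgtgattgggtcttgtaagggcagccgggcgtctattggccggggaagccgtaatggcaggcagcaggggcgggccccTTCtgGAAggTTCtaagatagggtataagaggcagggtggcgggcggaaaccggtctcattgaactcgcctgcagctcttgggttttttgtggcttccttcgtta
CXCL1 promoter: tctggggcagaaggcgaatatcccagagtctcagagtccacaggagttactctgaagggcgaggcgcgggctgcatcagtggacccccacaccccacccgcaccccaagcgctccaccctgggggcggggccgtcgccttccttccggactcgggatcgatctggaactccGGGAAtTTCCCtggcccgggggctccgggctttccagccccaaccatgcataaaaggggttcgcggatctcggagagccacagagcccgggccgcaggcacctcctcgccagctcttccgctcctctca
The HSPA5 promoter (chr9:125241294-125241593, minus strand) holds the ER stress element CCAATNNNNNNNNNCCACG at -66 to -48. The HERPUD1 promoter (chr16:56931892-56932191, plus strand) holds the related element ATTGGNCCACG at -117 to -107 and the C/EBP-ATF letters TGATGNAAN, read on the other strand, at -177 to -169. The CHAC1 promoter (chr15:40953221-40953520, plus strand) holds TGATGNAAN on the other strand at -210 to -202. The HSPA8 promoter (chr11:123062087-123062386, minus strand) holds the heat shock element GAANNTTCNNGAA at -230 to -218 and, on the other strand, at -55 to -43. The CXCL1 promoter (chr4:73869143-73869442, plus strand) holds GGGNNNTTCC at -79 to -70 and on the other strand at -78 to -69, which overlap.

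The ER stress element was rare, in 0.09% of all 27305 genes, and was found in 8 of the 27 UPR and chaperone genes with a promoter entry (29.6%), namely XBP1, HSPA5, HSP90B1, PDIA6, CALR, CANX, CRELD2 and ERO1B. Among members it was in 11 of 1550 lower genes and in none of 1502 higher genes. Its share over all 9232 members with a promoter entry was 0.17%. Of 21 ER-associated degradation genes none held it, and HERPUD1 alone held the related element ATTGGNCCACG. The letters TGATGNAAN were in 4.45% of all genes, 2.60% of members, 5.74% of lower genes and 1.40% of higher genes. They were in 7 of 16 tRNA synthetase genes (43.8%) and 7 of 29 ATF4 target genes (24.1%). Of the 7 synthetase genes with the letters, AARS, CARS, GARS, IARS, MARS and TARS were called lower and NARS was not called. The heat shock element was in 9 of 26 heat shock genes (34.6%) against 0.61% of all genes. Its share was 0.41% of members, 0.32% of lower genes and 0.53% of higher genes. GGGNNNTTCC was in 9 of 16 NF-kB list genes (56.2%) against 7.83% of all genes. Its share was 10.1% of members, 11.7% of lower genes and 9.12% of higher genes. For both the heat shock element and GGGNNNTTCC, the shares of called genes thus lay near those of members. A match is a run of letters in this window, and binding was not measured.

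Immediate early genes and feedback regulators of the ERK pathway were called lower in 21 of 24 genes and higher in none, with a median of -0.92 against 0.03 before induction. DUSP4, a phosphatase that inactivates ERK, was at 9.77 and 8.9 FPKM in the shLSD1 line and at 9.69 and 0.867 FPKM in the shG9a line, 10.3-fold lower (8.43 to 12.6). FOSL1, a FOS family partner of JUN, was at 39.3, 5.33, 32.1 and 1.07 FPKM, 4.97-fold lower (3.45 to 7.37), with both induced libraries far below their uninduced ones. MYC was at 219, 105, 206 and 67.2 FPKM, 1.56-fold lower (1.49 to 1.62). Induced shG9a was the lowest library for 22 of the 24 genes.

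Squamous genes did not move as 1 group. Of 23 differentiation genes above the filter, 18 were lower and 4 higher, with a median of -1.01. SERPINB4, a squamous carcinoma antigen, was at 9.79 and 97.8 FPKM in the shLSD1 line and at 10.8 and 19.4 FPKM in the shG9a line, 5.03-fold lower (4.63 to 5.47), and is near-identical to SERPINB3 (3.75-fold lower, 3.34 to 4.21). KLF4, a differentiation factor, was at 8.9, 7.16, 9.27 and 2.18 FPKM, 3.29-fold lower (2.71 to 4.01). KRT13, CAPNS2, ZNF750 and CNFN were the 4 higher members. After centring 19 were lower and 3 higher, as CNFN lost its call, and KRT16, at 5.4 against 3.99 FPKM, was called lower.

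The basal list was split evenly, with 9 of 30 genes higher, 10 lower and a median of -0.06. Keratins KRT5, KRT14, KRT15 and KRT6A and the adhesion genes PERP and DSP were higher, PERP at 150 against 324 FPKM (2.16-fold, 2.11 to 2.21). KRT6A, at 0.819 against 1.38 FPKM, lost its call after centring. The keratin KRT17, the laminin chains LAMA3 and LAMB3 and the desmoglein DSG3 were lower, DSG3 at 16.6 against 5.57 FPKM (2.98-fold, 2.7 to 3.29). TP63, the master regulator of squamous identity, was at 41.9 and 32.6 FPKM in the shLSD1 line and at 40.5 and 31.8 FPKM in the shG9a line, a ratio of 0.975 (0.934 to 1.02). SOX2, its partner, was at 5.24, 20.1, 5.99 and 38.8 FPKM, 1.93-fold higher (1.78 to 2.1). In the Serpin B clade, 6 of 8 genes were lower, with a median of -0.60, and SERPINB7 and SERPINB5 (maspin) were higher, SERPINB7 not after centring.

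Of 28 hypoxia and glycolysis genes, 12 were lower and 2 higher, with a median of -0.30, and 13 and 1 after centring. The glucose transporter SLC2A1 was at 898 and 113 FPKM in the shLSD1 line and at 864 and 35.1 FPKM in the shG9a line, 3.22-fold lower (3.04 to 3.42), and the carbonic anhydrase CA9 was at 16.8 against 4.74 FPKM (3.55-fold lower, 2.93 to 4.32). Of the glycolytic enzymes, ENO1 at 448 against 575 FPKM and GAPDH at 1188 against 1154 FPKM were not called, and TPI1 was called higher at a log2 ratio of 0.44. PGK1, at 158 against 122 FPKM, was called lower after centring and not before it. Every one of the 28 genes had its lowest level in an induced library, in induced shG9a for 19 and in induced shLSD1 for 9.

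Replication genes were higher. Of 33 G1/S genes, 21 were called higher and 3 lower, with a median of 0.43 against 0.13 before induction, and 16 were higher after centring. CCNE1, the cyclin of S phase entry, was at 0.906 and 1.39 FPKM in the shLSD1 line and at 1.09 and 4.96 FPKM in the shG9a line, 3.57-fold higher (2.68 to 4.81). PCNA, the polymerase clamp, was at 22.9, 43.4, 28.3 and 76.3 FPKM, 1.76-fold higher (1.63 to 1.89). CCND1, CDK6 and the inhibitor CDKN1A were the lower ones, CCND1 at 75 against 51.4 FPKM. Of 33 mitotic genes, 11 were higher and 3 lower, and 7 and 3 after centring, with KIF20A at 15.6 against 26.8 FPKM and CENPA at 11.3 against 6.49 FPKM.

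Sterol synthesis genes were higher in 9 of 25 and lower in none, with a median of 0.26 against 0.15 before induction. LSS, which closes the sterol ring as lanosterol synthase, was at 12.1 and 20.4 FPKM in the shLSD1 line and at 14 and 34.7 FPKM in the shG9a line, 1.7-fold higher (1.62 to 1.79). ID genes and BMP feedback genes were higher in 5 of 10, with a median of 0.40, among them the dominant-negative helix-loop-helix factors ID2 (9.22 against 24.2 FPKM, 2.63-fold, 2.32 to 2.98) and ID3 (213 against 498 FPKM, 2.34-fold, 2.27 to 2.4).

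NRF2 targets, which defend against oxidants, were lower in 11 of 22 and higher in none, with a median of -0.40. This list differed before induction in the opposite direction, with a median of 0.20 and 7 genes called higher in uninduced shG9a. TXNRD1, thioredoxin reductase, was at 72.5 and 117 FPKM in the shLSD1 line and at 84.2 and 54.5 FPKM in the shG9a line, 2.15-fold lower (2.08 to 2.21). GCLM, a glutathione synthesis subunit, was at 12.4, 11.7, 19.4 and 12.5 FPKM and so differed before induction and not with Dox.

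Interferon and antigen presentation genes were lower in part. Of 30 interferon-stimulated genes, 13 were lower and 2 higher, and 14 and 1 after centring, with a median of -0.28, IFIT2 at 10.3 against 3.42 FPKM (3-fold, 2.6 to 3.49). Induced shLSD1 was the highest of the 4 libraries for 22 of the 30. Of 15 MHC class I genes, 5 were lower and 1 higher, and 7 and 0 after centring, HLA-B at 87.1 against 38.8 FPKM (2.25-fold lower, 2.13 to 2.37).

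Epithelial-mesenchymal transition genes were lower in 14 of 24 and higher in 1, SNAI2, with a median of -0.52. TGFB1 was at 15.9 and 13.8 FPKM in the shLSD1 line and at 15.7 and 3.6 FPKM in the shG9a line, 3.82-fold lower (3.27 to 4.49). E-cadherin (CDH1) stood at 78.7 FPKM in both induced libraries. Of 14 YAP and TEAD targets, 7 were lower and 1 higher, the kinase gene LATS2. In the Notch and Wnt list 5 of 16 were higher, all of them Notch genes (NOTCH1, NOTCH3, JAG1, JAG2 and NRARP), and 3 lower, WNT7A, WNT5A and DLL1. JAG2 lost its call after centring.

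Death and arrest genes went both ways. Of 24 p53 targets, 7 were higher and 9 lower, with CCNG1 at 19.6 against 53 FPKM (2.7-fold higher, 2.51 to 2.9) and GDF15, which is also an ATF4 target, at 89.9 against 11.2 FPKM (8.05-fold lower, 7.25 to 8.94). Of 14 BCL2 family genes, 3 were lower and 2 higher, near the 16.6% and 15.7% of all members. Before induction, 2 of the 14 were called lower in shG9a. The BH3-only genes BIK, BBC3 and BID were lower with Dox, and BMF and BAX were higher, BMF at 8.21 against 15.5 FPKM (1.89-fold, 1.73 to 2.06). BAX, at 22 against 29.4 FPKM, lost its call after centring. MCL1 stood at 145 against 146 FPKM.

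Partners of the targeted enzymes were called in both directions. Of 16 CoREST complex genes, KDM1A, KDM1B and ZMYM3 were higher and ZNF217 lower, and only KDM1A and ZNF217 remained called after centring. Of 17 genes for H3K9 methylation, UHRF1, CBX1, CBX5 and SUV39H1 were higher and EHMT2 and SUV39H2 lower, UHRF1 at 5.34 against 9.93 FPKM (1.86-fold, 1.66 to 2.08). EHMT1, the partner of G9a, was at 2.82 against 3.79 FPKM and was not called. With 0.1 or 0.01 FPKM added in place of 1, EHMT1 was called higher. With 1 FPKM added, calls fell on 4 of 16 and 6 of 17 genes, targeted genes included, beside 32.3% of all members.

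Of 48 ribosomal protein genes, 3 were higher (RPL22, RPL30 and RPL38) and none lower, with a median of 0.11. Of 13 genes of the mitochondrial genome, 4 were higher (2 after centring) and none lower, with a median of 0.29, and induced shG9a was the highest library for all 13. Histone genes were higher in 4 of 13 and lower in 2, the linker histone gene H1F0 at 425 against 162 FPKM (2.63-fold lower, 2.55 to 2.7). Of 9 metallothionein, TXNIP and arrestin-domain genes, 5 were higher and 1 lower.

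Genes that repressive complexes keep silent were mostly below the filter. Of 25 neuronal genes repressed by REST, 4 passed, NEFL higher at 0.0924 against 3.12 FPKM and L1CAM and CPLX1 lower. Of 30 cancer-testis and germline genes 2 passed and of 43 clustered protocadherins 2 passed, and none was called with 1 FPKM added. With 0.1 or 0.01 FPKM added in place of 1, the 2 protocadherins, PCDHB14 and PCDHGC3, were called higher. IGFL2-AS1 was the 1 gene of the IGFL cluster above the filter and was higher at 7.21 against 12.1 FPKM.

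Matches to the guide seeds in 3' untranslated regions were counted in 10757 members with one. The letters ACTGAAT, which pair with the shLSD1 guide seed, were present in 1772, of which 14.5% were higher and 15.7% lower, against 16.2% and 17.6% of the 8985 genes without them. The letters AACAAGA, which pair with the shG9a guide seed, were present in 1599, of which 12.3% were higher and 18.9% lower, against 16.5% and 17.0% of the 9158 without. The median log2 ratio was -0.010 with and 0.054 without AACAAGA, and 0.033 and 0.046 for ACTGAAT. Genes with a match had longer untranslated regions, with medians of 3250 and 1080 bases for AACAAGA and of 3092 and 1055 bases for ACTGAAT, and the part of length in these shares was not tested.

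The same direction of contrast was available from inhibitors, in libraries not shared with the knockdowns. SP2509 inhibits LSD1 and UNC0642 inhibits G9a, and Kyse510 cells had each for 2 days at 7 µM, in 1 library each. Of 11676 members that could be compared, 37.9% were called higher and 15.1% lower in UNC0642 than in SP2509. Of the 1814 genes that were higher in induced shG9a, 46.3% were higher and 11.0% lower under the inhibitors, and of the 1933 that were lower, 36.0% were higher and 22.4% lower.

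The heat shock and replication lists stood above 0 there too. Of 29 heat shock genes 16 were higher and 5 lower in UNC0642, and of 33 G1/S genes 23 were higher and 4 lower. Other lists above the median in the knockdowns went both ways. Higher genes outnumbered lower ones for sterol synthesis (9 and 1 of 25) and proteasome genes (22 and 0 of 29). Lower genes outnumbered higher ones for ID and BMP feedback (5 and 3 of 10), mitotic (7 and 5 of 33) and ribosomal protein genes (21 and 1 of 48). HSP90AA1 was at 209 FPKM under SP2509 and 461 FPKM under UNC0642, and HSPA5 at 511 and 251 FPKM, each in the direction of the knockdowns. HSPA5 was among 3 UPR and chaperone genes called lower in UNC0642, of 28 compared, and 9 were called higher. Over all members compared, 15.1% were lower and 37.9% higher. Other lists with medians below 0 in induced shG9a went both ways there. Lower genes outnumbered higher ones for interferon (11 and 1 of 26) and MHC class I genes (9 and 1 of 15). So it was for p53 targets (12 and 5 of 23) and epithelial-mesenchymal genes (11 and 3 of 24). The same held for immediate early (11 and 5 of 24) and basal squamous genes (18 and 4 of 29). It also held for squamous differentiation (10 and 6 of 22) and YAP and TEAD genes (7 and 3 of 14). Hypoxia genes were nearly even (6 and 5 of 28). In 5 others of at least 20 compared genes, lower genes did not outnumber higher ones. ATF4 and CHOP targets had 16 of 34 genes higher and 10 lower, tRNA synthetases 9 of 20 higher and 0 lower, and ER-associated degradation genes 12 of 26 higher and 2 lower. The NF-kB list had 8 of 20 genes higher and 8 lower, and the NRF2 list 18 of 22 higher and 1 lower. KRT5 was at 734 and 303 FPKM and SPP1 at 8.13 and 27 FPKM, both against the direction of the knockdowns. Of the other ranked higher genes, GLYATL2, KRT13, TXNIP, IGFBP5, SAMD11 and RGS2 were also called lower in UNC0642. KCTD12 was called higher, and MUC13 and KDM1A were not called. Of the other ranked lower genes, LCN2, RARRES1, CHAC1 and ABCC3 were called higher in UNC0642, and SAA1, CYP24A1 and PDZK1IP1 lower. TCIM was not called, nor was IL1A, at 217 and 184 FPKM.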

How the data were processed

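Per the labels, RNA of Kyse510 cells was sequenced in 8 libraries, 1 for each condition, of which the 4 knockdown libraries carry the report. The authors deposited FPKM values, scaled by gene length and library total, in separate tables for the knockdowns and the inhibitors, and the submitters' processing notes name the genome build GRCh38. The aligner, the counter and its strand setting are not given in the sources used here. Whole reads behind the deposited FPKM values were recovered from their steps, within 0.005 of a read, and made up 99.58% to 99.76% of the library totals. In the knockdown libraries 1 gene had no whole reads, and the gene lengths behind the reads were inferred.

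Genes with at least 1 FPKM in either induced library were compared with a pseudocount of 1 FPKM, at 1.3-fold and an unadjusted two-sided exact binomial p under 0.05 on the reads, given the library totals. The study gives these thresholds and does not say which test gave the p-values of its sequencing calls. The members, the 34 gene lists and the rules were chosen with earlier results of these data known. Named genes were KDM1A and EHMT2, the 10 protein-coding genes with the largest ratio in each direction (called at 2-fold, at least 5 FPKM in the higher library, not called the same way before induction), the 5 largest called the same way and the 5 called the opposite way before induction, the 3 largest noncoding genes, and list members. The genes shown with promoters were chosen after their values were seen.

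Alternatives were pseudocounts of 0.1 and 0.01, no filter or a filter of 5 FPKM, a fold of 2, fold alone, Benjamini-Hochberg adjustment, median centring, TMM scaling, the smallest gene length, and protein-coding genes only. The centring of the inhibitor pair was chosen after the data were seen. Scripts ran in Python 3.11.15 with numpy 2.4.6, pandas 2.3.3 and scipy 1.17.1 and were tested on simulated data. Results on a few single genes of the lists are not reported here.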

Additional observations from a re-analysis of the deposited data

Results flagged for a closer look

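Of 45 genes ranked by size of difference, 18 had called responses to Dox of opposite sign in the lines, and the difference between those responses was not tested, because each is 1 library against 1. Among higher genes, with the log2 ratio of the induced pair followed by the log2 response to Dox in the shLSD1 and the shG9a line, these were KRT13 (2.69, -1.70 and 1.18), KDM1A (2.34, -1.89 and 0.43), IGFBP5 (2.21, -0.66 and 1.63), KCTD12 (2.07, -0.40 and 1.79), KRT5 (2.05, -1.32 and 0.81) and RGS2 (2.02, -0.41 and 1.78).

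Among lower genes, in the same order, these were SPP1 (-5.08, 2.47 and -2.91), SAA1 (-4.13, 2.71 and -1.51), RARRES1 (-3.95, 3.96 and -0.54), CHAC1 (-3.73, 1.13 and -2.86), PDZK1IP1 (-3.13, 1.97 and -1.14), CXCL1 (-3.06, 0.76 and -2.79), HLA-DRA (-2.38, 1.08 and -0.75), NCCRP1 (-1.81, 0.65 and -0.77) and HLA-DQB1 (-1.71, 0.50 and -0.82). The noncoding genes were CYP2B7P (-4.14, 1.33 and -2.55), AC245100.3 (-4.04, 0.69 and -3.71) and RNU7-75P (-3.07, 2.13 and -2.97), the last on at most 8 reads in a library. The log2 ratio of the induced pair shares a library with each response and is no independent support for it.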

How the results depend on the processing

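The 2066 higher and 2187 lower genes became 1320 and 1363 with a minimum of 5 FPKM and 191 and 563 at a fold of 2, and stayed within 1.5 times under the other alternatives, from 1578 to 2622 higher and from 1869 to 2539 lower. Centring on the median and TMM scaling moved the split to 1578 and 2497 and to 1597 and 2498, so that 38.7% and 39.0% of calls were higher in place of 48.6%. The counts of genes already different before induction were the least stable. The 17 genes already higher became 58 and 65 with pseudocounts of 0.1 and 0.01, 88 with no p, 10 at 5 FPKM and 0 at 2-fold in both pairs. The 54 already lower became 121, 123, 140, 23 and 2, and 33 among protein-coding genes. The cause was not tested beyond what the thresholds themselves do.

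None of 702 named and listed genes reversed. With TMM scaling 26 lost their call and 15 gained one, with centring 27 and 15, and with pseudocounts of 0.1 and 0.01 none lost it and 27 and 32 gained one. Of 34 list medians none reversed, and 9 and 11 moved with pseudocounts of 0.1 and 0.01. No paired analysis was possible because each condition has 1 library, and leaving out a library was not possible for the same reason. Depth limits genes with few reads, such as IL1A with 1 read in induced shG9a, MIR3193 and RNU7-75P. Clonal differences between lines, effects of 1 hairpin and differences between cultures cannot be told apart from the knockdowns in these libraries.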

Other observations

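Called genes also lay side by side. Ordering the 13174 members along the chromosomes gave 17 runs of at least 5 neighbours called in the same direction, with no test of whether that number is unusual. On chromosome 4 (73740506 to 74455009) CXCL8, CXCL1, CXCL3, CXCL2, EREG and AREG were all lower in induced shG9a, at log2 ratios of -3.06 to -1.26. These are chemokine genes followed by ligands of the epidermal growth factor receptor. On chromosome 2 (112645857 to 113134016) a run of 7 lower genes held the interleukin 1 family members IL1A, IL1B, IL36G, IL36RN and IL1RN, at -3.39 to -0.66. On chromosome 19 (50943303 to 51028039) the kallikrein proteases KLK5, KLK6, KLK8, KLK10 and KLK11 were lower, at -1.41 to -0.57.

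The longest run, 9 lower genes from NCF4 to CDC42EP1 on chromosome 22 (36860988 to 37569405), spanned -2.68 to -0.38 and held unrelated genes, among them RAC2 and CARD10. On chromosome 12 (57452323 to 57530148) INHBE, MARS, DDIT3, MIR616 and MBD6 were lower, at -2.77 to -0.49, and MIR616 lies within DDIT3. Runs of higher genes were fewer. The one from LINC01128 to NOC2L near the end of chromosome 1 (825138 to 959309) held 6 genes, at 0.46 to 2.39, with LINC02593 and SAMD11 adjacent.

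With the inhibitor pair centred on its median, 39.6% of the genes higher in induced shG9a were higher and 14.3% lower in UNC0642 than in SP2509, and 31.2% and 26.4% of the genes lower in induced shG9a, against 32.0% and 18.9% of all members compared.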
